A study of Caenorhabditis elegans with 2 samples.

Results

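Binding of the nuclear hormone receptor NHR-25 was examined at 10 genes of Caenorhabditis elegans that act in molting. These were the transcription regulators myrf-1, myrf-2, bed-3 and peb-1, the membrane proteins pan-1 and lrp-1, and the secreted or matrix-associated proteins nas-37, mlt-11, acn-1 and mlt-10. They were found by symbol in the WBcel235 annotation, which has ce11 coordinates, and are 10 of its 19985 protein-coding genes. A peak was counted for a gene when its summit lay in the gene or within 5 kb upstream of it. The libraries are ChIP-seq of whole L4 hermaphrodites of strain OP33, genotype unc-119(ed3) III; wgIs33. These worms stably carry NHR-25 fused at its C terminus to GFP and FLAG, and chromatin was sheared by sonication and precipitated with an antibody to GFP. There is 1 group of 2 biological replicates, and no control library was analysed here, so all values describe this 1 group. The tagged receptor is made from a transgene, and the signal is a mixture over all tissues of the worm.

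Molting replaces the cuticle at the end of each larval stage. Epidermal cells detach the old cuticle, secrete a new one beneath it, and release proteases that free the animal. NHR-25, the worm NR5A receptor related to fly FTZ-F1, is needed in the epidermis for this cycle. MYRF-1 and MYRF-2 are transcription factors that begin as membrane proteins. They are cleaved to release a DNA-binding fragment, and PAN-1, a leucine-rich repeat membrane protein, binds them and helps bring them to the cell surface.

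The deposited lists held 1826 thresholded peaks, 30000 pooled peaks, 23929 peaks of replicate 1 and 30000 peaks of replicate 2. The thresholded list was derived from the others by the irreproducible discovery rate step, while the other lists include background. Not every thresholded peak overlapped a peak in both replicates. The strongest summits at apl-1 and nekl-3, described below, overlapped none in replicate 1. Signal is the authors' value for a peak, on a scale that is not stated, and was compared only within a list. Thresholded signals ran from 30.3 to 1021 with a median of 41.2. The strongest 1826 peaks of each replicate reached down to signals of 13.2 in replicate 1 and 19.8 in replicate 2. Read depth is unknown.

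Thresholded NHR-25 peaks stood at both myrf genes, at pan-1 and at peb-1, and at none of the other 6 genes. They numbered 8 in all, 3 each at myrf-1 and myrf-2 and 1 each at pan-1 and peb-1. The 4 genes make up 40% of the 10, against 13.1% of all protein-coding genes. By role, 3 of 4 transcription regulators, 1 of 2 membrane proteins and 0 of 4 secreted or matrix-associated proteins had a thresholded peak. Groups this small cannot show a difference by role. Among other molting genes, described below, the matrix genes fbn-1, noah-2 and sym-1 had thresholded summits, while noah-1 had none. Having 3 or more such summits, as myrf-1 and myrf-2 do, was seen in 0.470% of protein-coding genes. No share among genes of like length was taken for this count. With 2 kb upstream, the genes with a peak were 2, myrf-1 and myrf-2, against 8.97% of all protein-coding genes, since the pan-1 and peb-1 peaks lie farther out.

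The searched stretch was longer than that of most genes. Gene plus upstream sequence spanned 8546 to 24968 bp in the 10 genes, with a median of 10499 bp, against a median of 7026 bp over all protein-coding genes. Among the 4968 genes whose stretch fell in the range of the 10, 18.2% had a thresholded summit. Of the 10 genes, 4 lie on chromosome X and 2 of these had one, against 16.8% of X-linked genes. No test was made over genes chosen with earlier results known.

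Sequence around the summits is shown for the 3 strongest peaks, which share a motif, and for the strongest peak at each of myrf-2 and peb-1, which held none of the 7 motifs searched. Each sequence covers 100 bp on either side of the summit and is written 5′ to 3′ on the plus strand of ce11. Capitals mark every match to a searched motif on either strand.
myrf-1, 5′ end (chrII:10502765-10502965): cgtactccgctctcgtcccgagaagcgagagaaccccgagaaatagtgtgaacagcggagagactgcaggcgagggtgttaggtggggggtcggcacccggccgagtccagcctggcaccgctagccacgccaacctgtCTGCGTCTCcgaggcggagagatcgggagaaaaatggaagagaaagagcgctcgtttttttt
myrf-1, first intron (chrII:10501695-10501895): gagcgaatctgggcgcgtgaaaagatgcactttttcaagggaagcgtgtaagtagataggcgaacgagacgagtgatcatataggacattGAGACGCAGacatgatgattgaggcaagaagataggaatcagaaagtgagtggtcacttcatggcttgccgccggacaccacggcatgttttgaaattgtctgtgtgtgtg
pan-1, upstream (chrIII:4560612-4560812): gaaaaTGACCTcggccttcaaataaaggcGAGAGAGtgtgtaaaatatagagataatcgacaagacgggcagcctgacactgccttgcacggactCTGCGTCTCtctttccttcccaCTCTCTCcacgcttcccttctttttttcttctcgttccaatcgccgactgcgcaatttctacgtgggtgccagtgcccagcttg
myrf-2, intron (chrX:10188638-10188838): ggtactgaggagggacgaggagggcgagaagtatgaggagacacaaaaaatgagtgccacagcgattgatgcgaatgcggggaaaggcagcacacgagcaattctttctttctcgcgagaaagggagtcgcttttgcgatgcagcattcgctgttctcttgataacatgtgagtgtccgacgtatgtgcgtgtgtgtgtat
peb-1, upstream (chrX:2208511-2208711): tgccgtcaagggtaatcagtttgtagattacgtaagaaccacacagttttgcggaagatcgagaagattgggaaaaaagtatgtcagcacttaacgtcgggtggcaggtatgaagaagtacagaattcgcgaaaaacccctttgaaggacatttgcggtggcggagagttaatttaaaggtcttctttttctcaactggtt

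The word GAGACGCAG, known as the recognition sequence of EOR-1, a BTB-domain zinc-finger factor, was present in 3 of the 8 windows. Those are the windows of the 3 highest signals, pan-1 at 76.1 and myrf-1 at 70.8 and 55.0. Its centre lay 1 bp from the summit at pan-1, 6 bp from it in the myrf-1 intron and 43 bp from it near the myrf-1 5′ end. Of all 1826 thresholded windows, 12.2% held the word, at a median of 31.0 bp from the summit. In the pan-1 and 5′-end windows it read CTGCGTCTC on the plus strand, and in the intron GAGACGCAG. These are descriptions of letters in a window and show no binding by EOR-1.

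The pan-1 window also held GAGAGAG at 2 places and the nuclear receptor core AGGTCA, as TGACCT, 92 bp from the summit. All 3 words together were found in 0.219% of thresholded windows, which is 4 of 1826. The set of words was read off the pan-1 window, which is among the 4, so this share does not measure how unusual that window is. The myrf-2 summit of lowest signal had GAGAGAG 57 bp away, a word in 20.6% of all windows. The core AGGTCA was in 12.4% of all windows. Its count at the 8 summits changed with the window: 0 with 50 bp on each side, 1 with 100 bp and 3 with 150 bp, 2 at myrf-1 and 1 at pan-1, against 6.90%, 12.4% and 16.5% of all windows. None of the 8 windows held the NR5A-type sequence YCAAGGYCR, where Y stands for a pyrimidine and R for a purine, its strict form TCAAGGTCA, the shorter AAGGTCA or the E-box CACGTG. These were found in 3.45%, 0.931%, 5.75% and 8.38% of thresholded windows, so 8 windows cannot show a lack of them. AGGTCA is part of AAGGTCA, which is part of TCAAGGTCA, so these counts overlap. GC content of the 8 windows ran from 33.8% at the upstream myrf-2 peak to 60.2% at the myrf-1 5′ end, against a median of 43.8% over all thresholded windows.

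At myrf-1 (WBGene00004134, chrII:10496987-10502541, minus strand), peaks flanked and entered the 5′ part of the gene. The strongest, chrII:10502817-10502923, had a pooled signal of 70.8 and rank 206, and its summit lay 324 bp upstream of the annotated 5′ end. It was narrow, at 107 bp, and stood inside the noncoding RNA gene F59B10.7, which is on the opposite strand. The second, chrII:10501600-10501989, lay in the first intron, 746 bp downstream of the 5′ end, with a signal of 55.0 and rank 435. The third, chrII:10505950-10506339, lay 3604 bp upstream, with a signal of 51.0 and rank 546. Its summit was intergenic, and the peak overlapped the noncoding RNA gene F59B10.9. The 3 summits span 4350 bp. All 3 exceeded the thresholded median, and none had a nearer protein-coding 5′ end than that of myrf-1.

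Another myrf-1 summit fell just short of the threshold. It lies in an intron, 1834 bp downstream of the 5′ end, with a pooled signal of 28.8 and rank 2024. Its peak overlapped strong peaks in both replicates, with 24.6 and rank 423 in replicate 1, and 20.1 and rank 1756 in replicate 2. Their summits lay apart, 1938 bp downstream in replicate 1 and 1573 bp downstream in replicate 2. The next, 3101 bp downstream in a coding exon, had 24.9 in the pooled list. It had 5.25 in replicate 1 and 15.8 in replicate 2, both outside the strongest 1826.

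The paralog myrf-2 (WBGene00008999, chrX:10180940-10194377, minus strand) had its strongest peak within the gene. That at chrX:10188543-10188932 had a signal of 53.9 and rank 476. It lay in an intron, 5639 bp from the outermost 5′ end and 268 bp from one of the gene's 10 annotated 5′ ends. A weaker intronic peak at chrX:10189798-10190187 had 31.1 and rank 1734, close to the lower end of the list, and lay 447 bp from an annotated 5′ end. The third peak, chrX:10197319-10197708, was upstream, 3137 bp from the outermost 5′ end, with 37.8 and rank 1117. Its summit was 192 bp from the 5′ end of nucb-1, a nucleobindin gene that points away from myrf-2. It is the only one of the 8 summits with a nearer protein-coding 5′ end than that of the gene it was counted for. By the outermost myrf-2 5′ end itself, 233 bp upstream, the pooled list had a summit of 19.4, with 4.38 in replicate 1 and 21.6 in replicate 2, where it was among the strongest 1826 peaks.

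**Figure D1:**
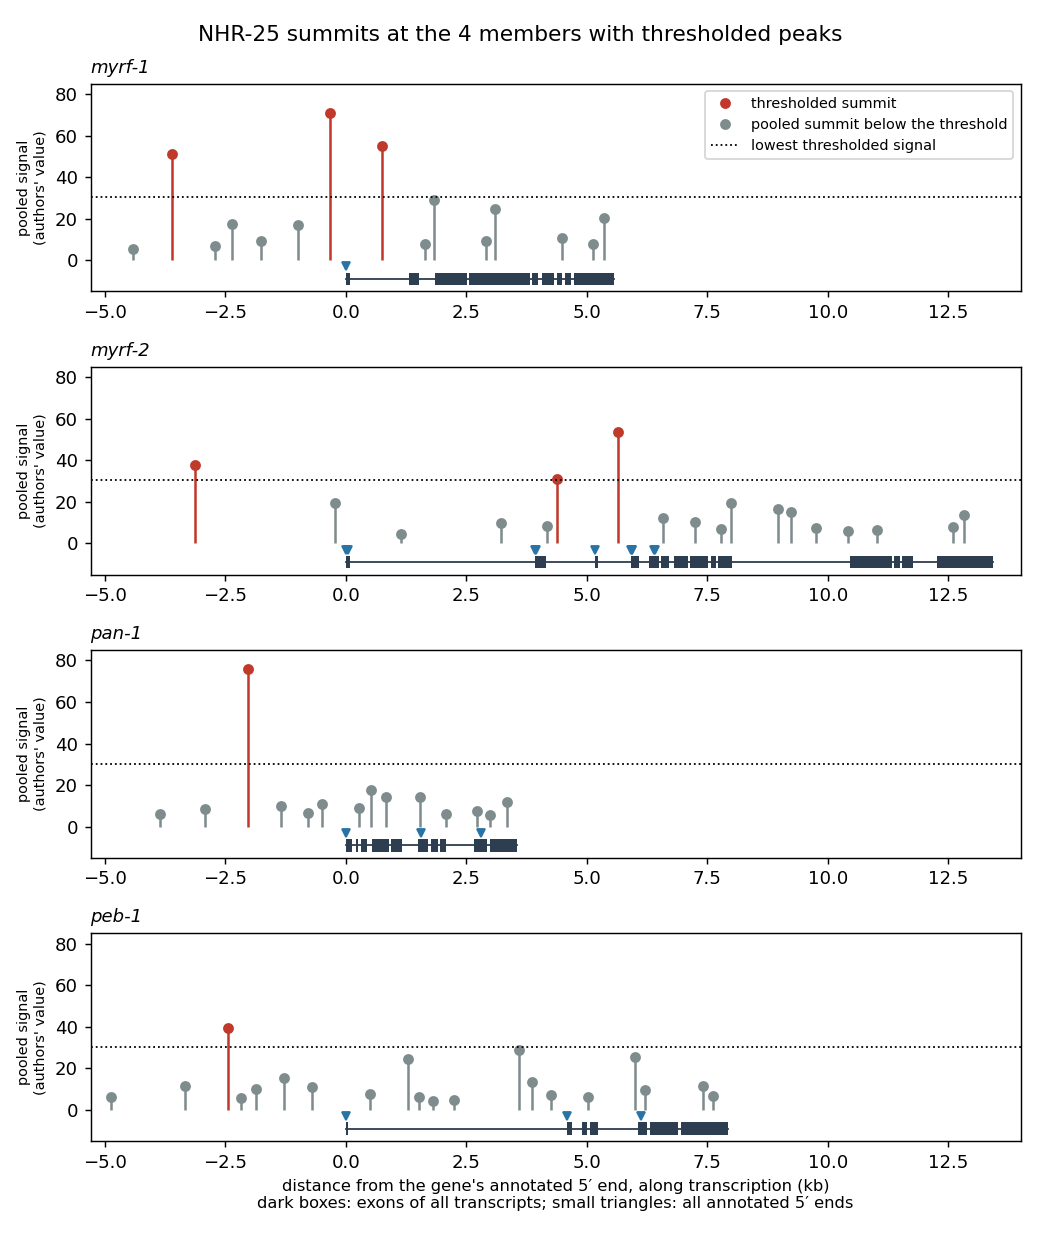
Pooled signal (y axis, the authors' value) of each pooled summit against its distance from the gene's annotated 5′ end in kb (x axis) at myrf-1, myrf-2, pan-1 and peb-1, with exons as boxes and 5′ ends as triangles. Red summits are thresholded, and myrf-1 has 3 of them around its 5′ end, myrf-2 has 1 upstream and 2 in introns, and pan-1 and peb-1 have 1 each upstream.

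At pan-1 (WBGene00003915, chrIII:4562738-4566283, plus strand), 1 peak of high signal stood alone. The peak, chrIII:4560517-4560906, had 76.1 and rank 172, above 90.6% of thresholded peaks, and was the strongest at any of the 10 genes. Its summit lay in intergenic sequence 2026 bp upstream of pan-1, the nearest protein-coding 5′ end, and 274 bp beyond the 3′ end of imph-1, which is transcribed in the same direction. The next pooled summit at the gene had 17.5, at rank 4850.

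The peb-1 gene encodes a DNA-binding zinc-finger protein known from the pharynx (WBGene00003968, chrX:2211051-2218988, plus strand). Its thresholded peak, chrX:2208416-2208805, lay 2440 bp upstream with a signal of 39.5 and rank 1022, a little below the thresholded median. Inside the gene, intronic summits of 28.7, 25.2 and 24.4 in the pooled list ranked 2034, 2621 and 2755, all below the threshold. The first, 3588 bp into the gene, overlapped strongest peaks in both replicates, with 13.5 in replicate 1 and 22.6 in replicate 2. Their summits lay apart, 3896 bp into the gene in replicate 1 and 3549 bp in replicate 2. The gene had 20 pooled summits, or 15.5 per 10 kb.

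Each of the 8 peaks overlapped a peak in the full list of both replicates, by at least 1 bp, but their strengths there differed. The full lists include background, and the same share over all thresholded peaks is not given, so this overlap is weak support. Among the strongest 1826 of a replicate, 6 of the 8 were found in replicate 1 and 7 in replicate 2, and 5 in both. Of all thresholded peaks, 957 of 1826, or 52.4%, were in both. All 4 genes kept at least 1 peak with this support. Such a peak was thus at 4 of the 10 genes, against 7.24% of all protein-coding genes.

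The myrf-1 peak near the 5′ end differed in rank between the replicates. It had a signal of 12.3 and rank 2096 in replicate 1, with the summit displaced by 146 bp, and 65.5 and rank 77 in replicate 2. The intronic myrf-1 peak had 31.9 and rank 200 in replicate 1 and 32.4 and rank 544 in replicate 2. The upstream myrf-1 peak had 28.5 and rank 268 in replicate 1 and 22.9 and rank 1319 in replicate 2. Thus the strongest myrf-1 peak of replicate 1 was the intronic one, and that of replicate 2 the one near the 5′ end.

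At myrf-2 the ranks also differed between replicates. The stronger intronic peak ranked 340 in replicate 1 and 965 in replicate 2, with signals of 26.6 and 26.3. The weaker intronic peak had 19.4 and rank 785 in replicate 1 and 14.2 and rank 3322 in replicate 2. The upstream peak had 9.52 and rank 3378 in replicate 1 and 33.9 and rank 488 in replicate 2. Only the stronger intronic peak was therefore among the strongest of both replicates.

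The single peaks of pan-1 and peb-1 were among the strongest of both. At pan-1 the signal was 22.7 at rank 533 in replicate 1 and 49.5 at rank 170 in replicate 2. At peb-1 it was 17.3 at rank 1033 in replicate 1 and 28.1 at rank 826 in replicate 2. With 2 replicates and signals of unknown scale, these differences have no error estimate.

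**Figure D2:**
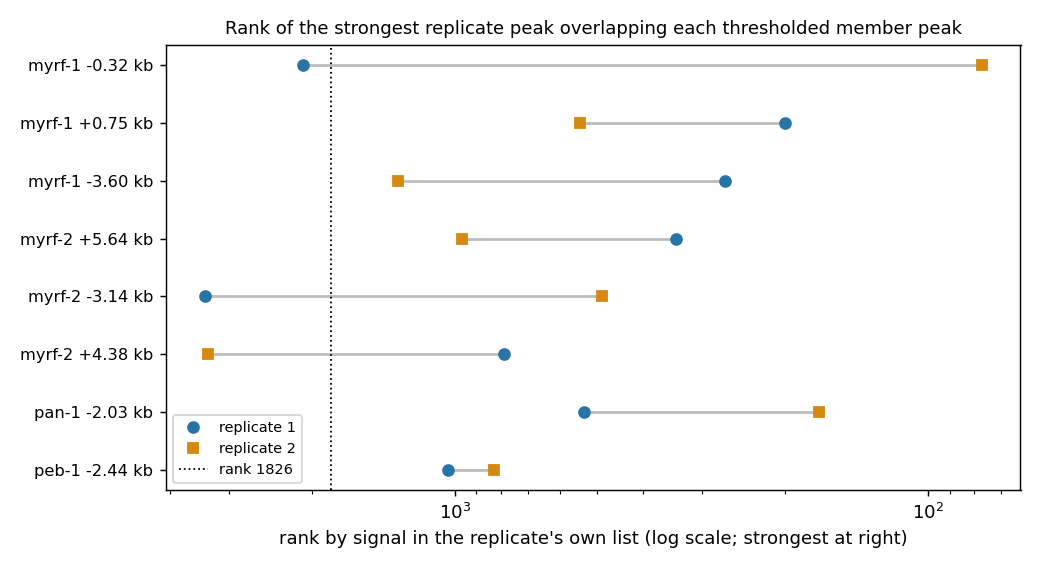
Rank by signal (x axis, log scale, strongest at right) of the strongest replicate peak that overlaps each of the 8 thresholded peaks (rows, by gene and distance from the annotated 5′ end), in replicate 1 (circles) and replicate 2 (squares). In 5 rows both replicates lie right of rank 1826, and the myrf-1 row at the top runs from rank 2096 in replicate 1 to rank 77 in replicate 2.

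Taken from each replicate alone, the strongest 1826 peaks marked the same 4 genes. Replicate 1 placed 11 such summits at them and replicate 2 placed 10, and the other 6 genes had 0 in either. Over all protein-coding genes, 12.4% had a strongest summit of replicate 1 and 12.8% one of replicate 2. Peaks found among the strongest of replicate 1 only included summits 2552 bp upstream of myrf-1, 796 bp upstream of pan-1 and 9052 bp into myrf-2. They had signals of 13.6, 13.2 and 13.2 in replicate 1. Their overlapping pooled peaks had 17.5, 10.9 and 16.6. Among the strongest of replicate 2 only was a summit 219 bp upstream of myrf-2, with a signal of 21.6 and rank 1509 in replicate 2 and an overlapping pooled peak of 19.4.

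The 6 genes without a thresholded peak had pooled summits of low rank. All 10 genes had some pooled summit, as did 65.0% of protein-coding genes, and in the 6 the strongest had signals from 9.19 to 15.7. The highest of them ranked 5722, and all were below the lowest thresholded signal of 30.3. Pooled summits numbered 9.76 to 16.4 per 10 kb at the 4 genes with thresholded peaks, and 3.87 to 8.81 at the other 6. These counts include the thresholded summits by which the genes were split, so part of the difference follows from the split. The median over all protein-coding genes was 1.82.

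Among regulators, bed-3, a BED zinc-finger transcription factor needed for molting (WBGene00009133, chrIV:9916524-9921967), had its strongest pooled summit 3323 bp upstream. That summit had 12.7 at rank 7938. No replicate 1 peak overlapped that summit's peak, and the overlapping replicate 2 peak had 6.42 at rank 12081. The strongest replicate peaks at bed-3 lay elsewhere. In replicate 1 it was 833 bp upstream, with 2.65 at rank 19176. In replicate 2 it was 4436 bp into the gene, with 6.66 at rank 11473. The endocytic receptor gene lrp-1, a megalin homolog (WBGene00003071, chromosome I 7614176 to 7634143), is the longest of the 10. Its 22 pooled summits reached only 15.5, 4460 bp upstream at rank 5824. In replicate 1 its strongest peak was 16623 bp into the gene, with 12.7 at rank 1976. In replicate 2 it was 4470 bp upstream, with 16.1 at rank 2670. Both ranks are outside the strongest 1826, and the peaks are at different places.

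The genes of enzymes and matrix-associated proteins had weak summits. The astacin metalloprotease gene nas-37, whose product digests the old cuticle (WBGene00003553, chrX:9944844-9949063), had at most 11.4 in the pooled list, at rank 9343 near its 3′ end. In the region 481 bp upstream of its 5′ end, replicate 1 had 8.07 at rank 4542, and replicate 2 had no overlapping peak. For mlt-11, which encodes a protein with Kunitz-type protease inhibitor domains (WBGene00012186, chrV:20667205-20678537), the pooled maximum was 9.19 at rank 12609, the lowest of the 10. Its strongest peak of replicate 1, 2293 bp upstream, had 9.25 at rank 3553, and none of replicate 2 overlapped it.

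The remaining pair had their strongest pooled summits upstream. At acn-1, which encodes a protein related to angiotensin-converting enzyme without its catalytic residues (WBGene00000039, chrX:5092481-5097067), it had 15.7 at rank 5722, 1610 bp upstream. Overlapping peaks had 5.24 in replicate 1 and 11.3 in replicate 2. At mlt-10, a gene required for molting (WBGene00015646, chrII:546705-552032), it had 13.8 at rank 7060, 2578 bp upstream and within an intron of T27A1.3. The overlapping replicate 1 peak had 11.9 at rank 2259, with its summit also 2578 bp upstream. The overlapping replicate 2 peak had 2.93 at rank 28490, with its summit 2310 bp upstream. That position is by another, weaker pooled summit, 2312 bp upstream, so the 2 replicate peaks have different summits.

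**Figure D3:**
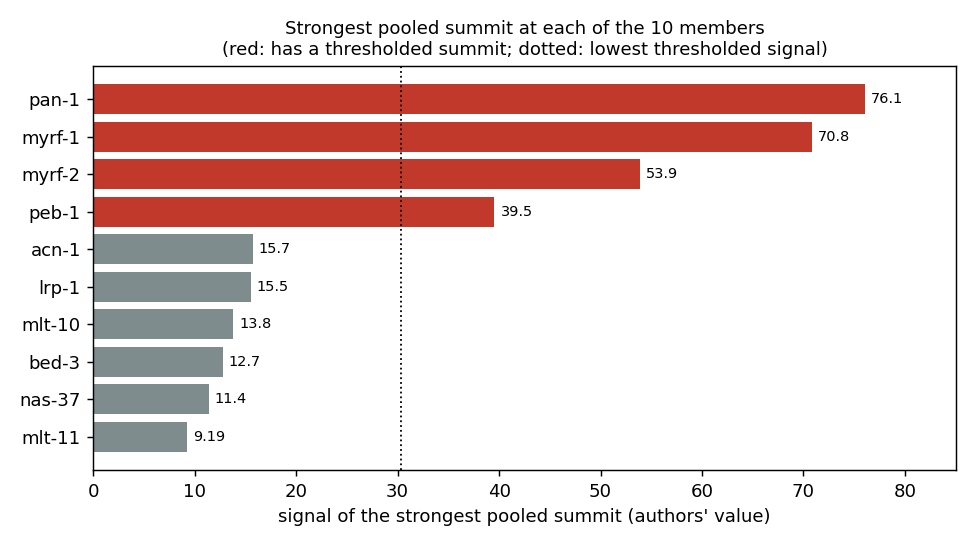
Signal of the strongest pooled summit (x axis, the authors' value) in each of the 10 genes or 5 kb upstream. The 4 genes with thresholded peaks range from 39.5 at peb-1 to 76.1 at pan-1, and the other 6 from 9.19 at mlt-11 to 15.7 at acn-1, all left of the lowest thresholded signal of 30.3.

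Of 46 other genes of the molting cycle, 19 (41.3%) had a thresholded summit in the gene or within 5 kb upstream, 39 summits in all. The share over all protein-coding genes was again 13.1%, and no share among genes of like length was taken for this list. In 15 of the 19 at least 1 summit was among the strongest of both replicates, and in 13 the highest signal exceeded the thresholded median. Of the 2621 protein-coding genes with a thresholded summit, 1447 had one with such support. A summit above the thresholded median was at 7.37% of all protein-coding genes. The tagged gene nhr-25 itself led with 248 and 7 summits, and reads of its transgene and native copy are not told apart.

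The zinc-finger gene lin-29 had 82.9, in an intron, and the casein kinase gene kin-20 had 75.8 and 6 summits. The transcription factor gene blmp-1 had 59.0, the period homolog lin-42 had 54.3 and the nuclear receptor gene nhr-23 had 51.0. The F-box gene dre-1 had 39.7, the nuclear receptor gene daf-12 had 34.2 and the amyloid precursor homolog apl-1 had 33.2. At apl-1 the strongest pooled summit had no overlapping peak in replicate 1, and 41.9 in replicate 2.

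The fibrillin-like gene fbn-1 had 74.8, 2274 bp upstream, and the proprotein convertase gene bli-4 had 61.9. The matrix genes noah-2 and sym-1 had 52.5 and 49.6, the peroxidase gene mlt-7 had 48.1 and the collagen gene bli-1 had 47.4. For bli-1 the summit lay 3203 bp upstream, in coding sequence where col-39 and dph-2 overlap. The remaining genes were let-767 with 51.2, sma-1 with 35.1, dab-1 with 34.9 and nekl-3 with 32.3. At nekl-3 the strongest pooled summit had no overlapping peak in replicate 1, and 25.3 in replicate 2. Nearer 5′ ends belonged to other genes at bli-1, let-767, sma-1 and nekl-3. Among the 27 without a thresholded summit, the highest pooled signals were 26.9 at mlt-9, 24.2 at mlt-8, 22.1 at noah-1, 22.0 at bli-3 and 20.6 at doxa-1.

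**Figure D4:**
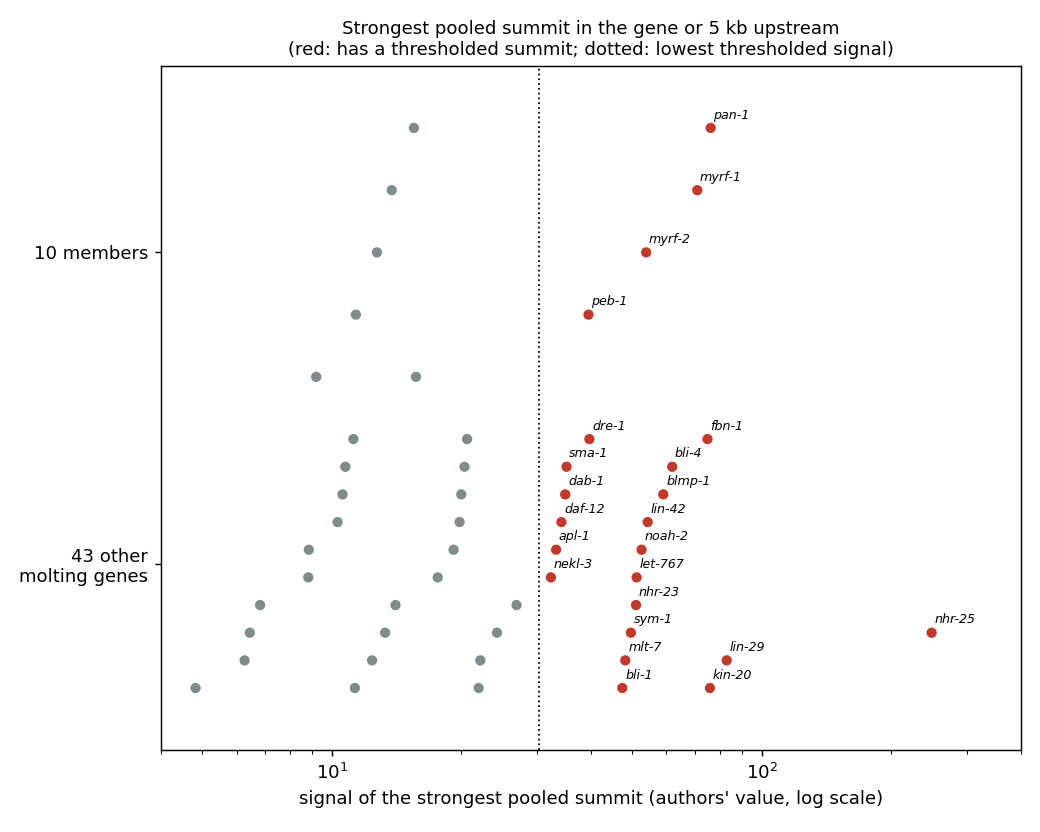
Signal of the strongest pooled summit (x axis, log scale, the authors' value) at the 10 genes (upper group) and at the 43 of 46 other molting genes that had a pooled summit (lower group), with vertical spread for legibility only. Genes in red have a thresholded summit, and pan-1, myrf-1, myrf-2 and peb-1 fall within the range of the 19 others, from 32.3 at nekl-3 to 248 at nhr-25.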

How the data were processed

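ChIP-seq peak lists of 1 group with 2 biological replicates were used. The authors deposited, per the deposited text records, replicate and pooled lists of peaks and background, and a thresholded list derived from them by the irreproducible discovery rate step. The authors deposited a signal value and a summit offset for each peak, made from the reads of 1 replicate or, in the pooled and thresholded lists, of both. The sources used here name no aligner, peak caller, threshold or signal scale. If 1 replicate was sequenced more deeply, it weighs more in the pooled signal, which was not tested. Only ce11 lists were analysed, with Ensembl release 115 genes of WBcel235. Python 3.11.15 and pandas 2.3.3 were used. Summits were assigned to genes as described, motifs were searched 100 bp on each side, and replicate support required an overlap of 1 bp with 1 of the 1826 strongest peaks. The scripts were tested on simulated data. The 10 genes, the list of other molting genes and the motifs were chosen with earlier results of these data known. All 10 genes, each other molting gene with a thresholded summit and 5 without were named. No hypothesis test was run, and depth, hence precision, is unknown.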

Additional observations from a re-analysis of the deposited data

How the results depend on the processing

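The count of 4 of the 10 genes depended on upstream distance. It fell to 2, myrf-1 and myrf-2, with 2 kb upstream, with 1 kb on each side of the gene or inside the gene only. Thresholded summits at them then numbered 4, 4 and 3, against 8. The share of all protein-coding genes moved to 8.97%, 8.80% and 2.33%. With 10 kb upstream it was 19.1% and the count 5, with nas-37 added through a peak of 73.5 that lies 9703 bp upstream and 194 bp from the 5′ end of ZC506.1. Peaks above the median signal left 5 summits, 3 genes without peb-1, and a share of 7.37%. Any overlap of the peak interval gave 13.7% and nearest 5′ ends 6.65%, each with the same 4 genes. Without 1 replicate, the share ran from 12.4% to 12.8%, and the 4 genes were the same. With 2 kb upstream, 2 genes had a peak among the strongest of both replicates. The share of all protein-coding genes with such a peak was taken for 5 kb only, where it was 7.24%. Of the other molting genes, 9 had a thresholded summit inside the gene only, an alternative chosen after seeing the data. The signal scale and read depth are unknown, so no error can be given for a peak's strength. No paired analysis was possible because the series has 1 group.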
